A study of Mus musculus with 8 samples.

Results

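The proteasome is the protein-cutting machine of the cell. A barrel of stacked alpha and beta rings, the 20S core, holds the cutting sites, and a cap, the 19S particle, binds ubiquitin-tagged proteins, unfolds them and feeds them in. In cells exposed to interferon the cutting subunits of the core are exchanged for the immunoproteasome subunits, which favour peptides for display on MHC class I molecules, and thymus and testis have core subunits of their own. Dedicated chaperones assemble the rings, and the PA28 and PA200 activators open the core without the 19S cap.

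The 51 genes described here are all protein-coding genes whose symbols begin with Psma, Psmb, Psmc, Psmd, Psme, Psmf or Psmg and a digit, out of 21887 protein-coding genes on the mouse chromosomes. The symbol rule uses no measured value, but it was chosen with earlier results of these data known. They comprise 7 genes of the ordinary alpha ring, 7 of the ordinary beta ring, 5 of special core subunits, 8 of the 19S base, 9 of the 19S lid and its ubiquitin receptors, 5 of activators, 1 inhibitor and 7 of assembly chaperones. The other 2, Psmc3ip and Psme3ip1, carry such a symbol but encode partners of a proteasome protein (Psmc3ip is a meiotic recombination factor) and not subunits.

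Chromatin immunoprecipitation and sequencing had been carried out in EML_C1, a mouse multipotent blood progenitor line grown with stem cell factor and labelled as strain C57BL/6, to map histone H3 trimethylated at lysine 27 (H3K27me3), a repressive mark, its enzyme Ezh2, and the blood transcription factor Runx1. Each antibody had 2 replicates, the cells were not treated otherwise, and no genotype or time was compared; the 2 input libraries were not analysed here. Lines of this kind were made immortal with a dominant-negative retinoic acid receptor, and a single line was used. Peak lists measure no expression, so the identity of the cells was not checked against markers, and the labels do not say that replicates were separate cultures.

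The peak lists were long and many of their peaks weak. Ezh2 had 178354 and 159007 peaks, H3K27me3 had 220455 and 178423, and Runx1 had 64059 and 66153 in replicates 1 and 2. Of the Runx1 peaks 60.0% and 69.3% had a q no higher than 0.01, as did 20.2% and 14.1% of the Ezh2 peaks and 6.13% and 1.34% of the H3K27me3 peaks. H3K27me3 peaks are broad, and their chromatin was fixed with formaldehyde alone where that for Ezh2 and Runx1 also had DSG, so the fold enrichments are not on one scale. The number of reads per library is unknown.

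A call for a gene meant that both replicates had a peak in a common window, reaching 1 kb either side of one end of the gene. Fold enrichment is the authors' value for a peak over its background, and the highest peak in the window was taken. No test was run on the counts below, since the genes were chosen as a list and no condition was varied.

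Proteasome genes carried Runx1 and almost no Ezh2 or H3K27me3. Runx1 was called at 41 of the 51 genes, or 80.4%, where 45.3% of all protein-coding genes were called. Ezh2 was called at 1 gene, or 1.96%, against 18.4% of all genes. H3K27me3 was called at 2 genes, or 3.92%, against 30.6% of all genes. The share with Runx1 was thus above, and the shares with Ezh2 and H3K27me3 below, the share over all genes. For 47 of the 51 genes no end had an Ezh2 or H3K27me3 peak in either replicate.

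**Figure D1:**
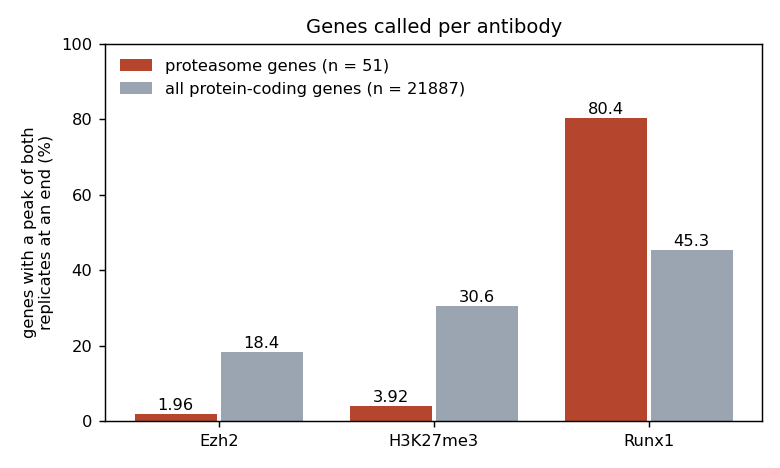
Percentage of genes with a peak of both replicates within 1 kb of an end, for the 51 proteasome genes (red) and all 21887 protein-coding genes (grey), by antibody. Runx1 stood at 80.4% of proteasome genes and 45.3% of all genes, Ezh2 at 1.96% and 18.4%, and H3K27me3 at 3.92% and 30.6%.

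Many proteasome genes have starts rich in CpG, and Runx1 was common at such starts in general. Of the 43 members with a start in the RefSeq promoter table, 30 had a CpG-rich start, taken as a GC content of at least 50% and an observed-to-expected CpG ratio of at least 0.6 over 300 bases. Over starts, 66.0% of 47 proteasome starts and 45.1% of 21263 protein-coding starts were CpG-rich. Of the 30 members, 25 or 83.3% carried Runx1, against 71.5% of all 8452 genes with such a start. Of the 13 members whose table starts were not CpG-rich, 9 or 69.2% carried Runx1, against 22.5% of such genes. Most of the 13 lay close to the thresholds. Among those called, Psmb9, Psmd9, Psme1, Psmb4, Psme2 (outer start), Psmd10 and Psmd4 had CpG ratios of 0.508 to 0.6. Psmc1 missed on GC alone (47.0%), and Psmb10 was far lower (0.192). Among those not called, Psma3 and Psmb8 were close (0.55 and 0.523), and Psmb11 and Psme2b far lower (0.165 and 0.0904). The CpG ratios of all such genes were not compared. Composition thus moved with the Runx1 calls, and its part in the result was not tested. Among genes with a CpG-rich start, 17.0% were called for Ezh2 and 22.6% for H3K27me3, both above the shares of proteasome genes.

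The starts printed here are examples and not the full range. Each is given as the 160 bases before the start in RefSeq on GRCm38.p6, read 5′ to 3′ on the strand of the gene. Psme2, Psmg1, Psmc6 and Psma6 (at its inner start) are shown because they were among the highest for Runx1. Psma2 and Psmd8, with mean folds of 28.1 and 26.0, were higher than Psmc6 and Psma6 (22.9 and 22.7) and are not printed. Psmb9, Psmb8 and Psmb10 are shown because they encode the immunoproteasome subunits. Capitals mark the RUNX letters TGTGGT or TGCGGT and the ETS letters CCGGAA on either strand, so that a RUNX match on the other strand reads ACCACA or ACCGCA.
Psme2, chr14:55591102-55591261, minus strand: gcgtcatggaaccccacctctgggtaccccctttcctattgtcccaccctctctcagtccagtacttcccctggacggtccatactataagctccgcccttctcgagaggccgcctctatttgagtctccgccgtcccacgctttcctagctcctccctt
Psmg1, chr16:95990961-95991120, minus strand: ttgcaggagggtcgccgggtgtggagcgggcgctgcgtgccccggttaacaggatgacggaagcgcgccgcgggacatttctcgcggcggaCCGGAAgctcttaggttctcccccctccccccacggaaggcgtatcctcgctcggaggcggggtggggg
Psmc6, chr14:45329664-45329823, plus strand: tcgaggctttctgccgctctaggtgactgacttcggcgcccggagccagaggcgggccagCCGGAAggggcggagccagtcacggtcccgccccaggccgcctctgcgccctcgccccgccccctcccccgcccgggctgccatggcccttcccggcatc
Psma6, chr12:55398665-55398824, plus strand: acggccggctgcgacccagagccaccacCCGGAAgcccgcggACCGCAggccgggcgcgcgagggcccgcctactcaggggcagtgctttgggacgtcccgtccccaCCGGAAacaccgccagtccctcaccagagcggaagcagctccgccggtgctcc
Psmb9, chr17:34187331-34187490, minus strand: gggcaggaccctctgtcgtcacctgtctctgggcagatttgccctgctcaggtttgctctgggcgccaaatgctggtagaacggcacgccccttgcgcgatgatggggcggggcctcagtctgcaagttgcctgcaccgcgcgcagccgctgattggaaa
Psmb8, chr17:34198035-34198194, plus strand: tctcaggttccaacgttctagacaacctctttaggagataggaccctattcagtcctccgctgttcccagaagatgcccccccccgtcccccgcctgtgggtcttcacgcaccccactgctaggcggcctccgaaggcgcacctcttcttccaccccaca
Psmb10, chr8:105938393-105938552, minus strand: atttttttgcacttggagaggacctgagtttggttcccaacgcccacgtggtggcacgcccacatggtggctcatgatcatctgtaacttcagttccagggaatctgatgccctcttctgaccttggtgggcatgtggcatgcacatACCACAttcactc

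The share with the ETS letters was higher for proteasome promoters than for all promoters, while the shares with the RUNX letters lay close to those of all promoters. TGTGGT stood in 8 of 47 proteasome promoters (250 bases before to 50 after the start), or 17.0%, against 15.0% of all protein-coding promoters and 9.21% of CpG-rich ones. TGCGGT stood in 4, or 8.51%, against 7.44% of all promoters and 11.4% of CpG-rich ones. Neither stood in the promoter of Psme2, Psmg1 or Psmc6. At the inner start of Psma6 the letters ACCGCA and the Runx1 summits of both replicates lay close together, the summits at positions -110 and -123 from the start. CCGGAA, the core of sites bound by ETS factors, stood in 23 of the 47, or 48.9%, against 18.7% of all promoters and 31.3% of CpG-rich ones. The antioxidant response letters TGACNNNGC, a form of the site through which Nfe2l1 and Nfe2l2 act on proteasome genes, stood in 6, or 12.8%, against 13.0%. CCAAT stood in 16, or 34.0%, against 38.2%. A match of letters is a description and not a site.

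The Runx1 folds of proteasome genes spanned a wide range, with 1.86 at the lowest called gene, 67.7 at the highest and a median of 7.43. Over all called genes the median was 7.50. A mean fold of at least 5 was reached by 26 members, or 51.0%, against 29.9% of all genes. A mean fold of at least 10 was reached by 14 members, or 27.5%, against 17.4% of all genes and 30.0% of genes with a CpG-rich start. A mean fold of at least 20 was reached by 7 members, or 13.7%, against 8.62% of all genes and 15.0% of genes with a CpG-rich start. At folds of 5, 10 and 20 the shares of proteasome genes were thus above those of all genes, and at 10 and 20 they were slightly below those of genes with a CpG-rich start. At a mean fold of at least 50 this was no longer so, as 1 member, Psme2, or 1.96%, reached it, against 2.28% of all genes and 4.06% of genes with a CpG-rich start. Replicates lay close together, as the higher fold was at most 1.5 times the lower at 39 of the 41 genes. The exceptions were the beta ring genes Psmb6, with Runx1 folds of 7.10 and 3.63, and Psmb1, with 1.45 and 2.30.

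**Figure D2:**
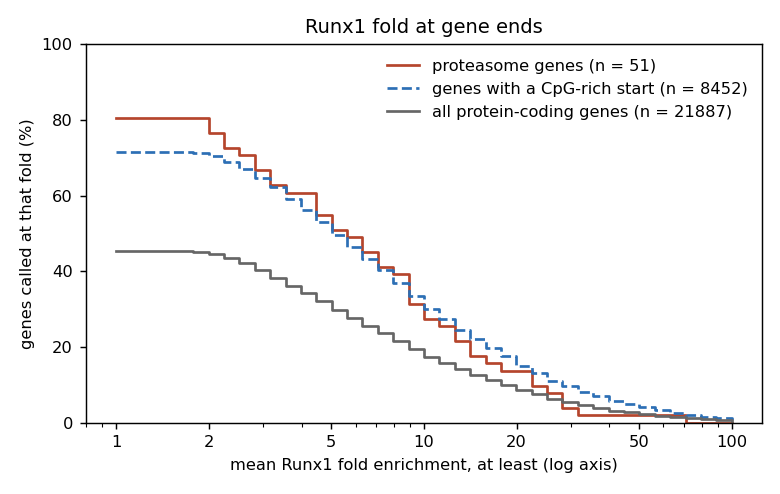
Percentage of genes called for Runx1 at or above a mean fold enrichment (horizontal log axis), for proteasome genes, genes with a CpG-rich start and all protein-coding genes. At a fold of at least 10 the lines stand at 27.5% for proteasome genes, 30.0% for CpG-rich starts and 17.4% for all genes.

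The special core subunits differed from one another. Runx1 was called at 2 of the 5 genes, or 40.0%, against 39 of the 46 other members, or 84.8%. The share of the special genes lay near the 45.3% of all protein-coding genes. Psmb9, the beta1i subunit of the immunoproteasome, had Runx1 folds of 9.53 and 8.04 (mean 8.79 ± 1.05, SD, n = 2). Psmb10, the beta2i subunit, had 12.3 and 10.7 (11.5 ± 1.10). Psmb8, the beta5i subunit, had a Runx1 peak in replicate 1 alone, with a fold of 1.86. Psmb11, the beta5t subunit of thymic cortical epithelium, had a peak in replicate 2 alone, with a fold of 1.85. Psma8, an alpha subunit of the testis, had none, and the nearest Runx1 summits lay 20904 and 20878 bp from its ends. With 5 genes, the difference from the other members was not tested. None of the 4 special genes with a table start had a CpG-rich one, although Psmb9 came close with a CpG ratio that rounds to the threshold of 0.6, against 30 of the 39 other members with a table start. Over all genes, Runx1 was called at 22.5% of those whose table starts were not CpG-rich and at 71.5% of those with a CpG-rich start. Among the members these shares lay closer together, at 69.2% and 83.3%. Most of the members counted as not CpG-rich lay close to the thresholds, so the 2 comparisons may not be alike in composition. The part of composition in the difference was not tested.

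Of the 3 immunoproteasome genes, Psmb9 and Psmb10 carried Runx1 at different places, and Psmb8 was not called. Psmb9 shares its Runx1 peak with Tap1, a subunit of the transporter that brings peptides to MHC class I, whose start lies head to head with that of Psmb9 on chromosome 17. The summits lay 109 and 104 bases before the start of Psmb9. Psmb8 lies beyond Tap1 in the same cluster of MHC genes, and no Runx1 peak of both replicates stood at either of its ends. The next peak of both replicates on that side lay inside Tap2, the other subunit of the transporter, with Runx1 folds of 38.0 and 41.4, and it was outside the windows of Tap2 and Psmb8. Psmb10 (chromosome 8, 105935728 to 105938392) had its highest peak inside the gene, with summits 1288 and 1302 bases beyond the start, and it reached into the window only by its edge. At the start of Psmb10, where the RUNX letters printed above begin 13 bases upstream, only replicate 2 had a peak, with a fold of 4.63. Peaks at its far end had folds of 4.15 and 6.29, and with windows of 500 bp these alone were counted (mean 5.22). Neither Ezh2 nor H3K27me3 had a peak at any end of Psmb8, Psmb9 or Psmb10.

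**Figure D3:**
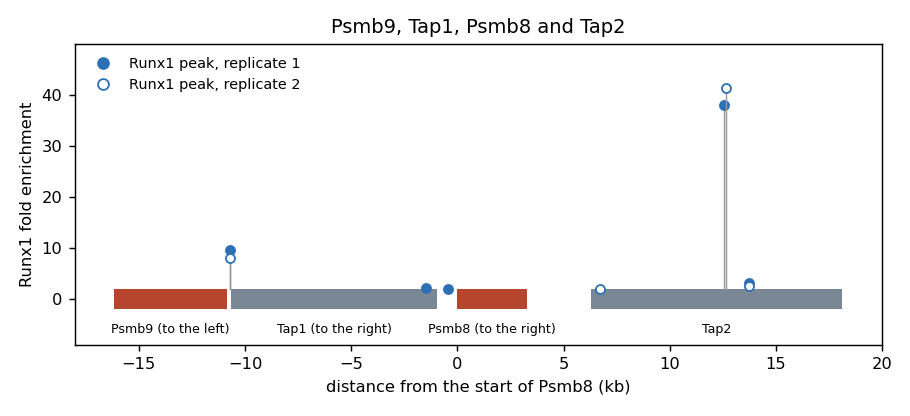
Runx1 peaks of both replicates (vertical axis, fold enrichment) along the cluster that holds Psmb9, Tap1, Psmb8 and Tap2, in kb from the start of Psmb8, for replicate 1 (filled) and replicate 2 (open), with bars for the genes and words for the direction of transcription where known. Peaks of both replicates stand between Psmb9 and Tap1 (9.53 and 8.04) and inside Tap2 (38.0 and 41.4), and at Psmb8 only replicate 1 has one (1.86).

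The PA28 activator genes, which like the immunoproteasome respond to interferon, lay at opposite ends of the range. Psme2, the beta subunit gene of PA28, had the highest Runx1 fold of all members, 74.1 and 61.3 (67.7 ± 9.07, SD, n = 2). Its peak is shared with Rnf31, a ubiquitin ligase gene whose start faces that of Psme2. Psme1, the alpha subunit gene, lies close by on chromosome 14 (55578494 to 55581527, with Psme2 at 55587440 to 55591101) and had folds of 2.03 and 2.23. Counting both as special raised the share with Runx1 to 57.1% of 7 genes, against 84.1% of the remaining 44 and 45.3% of all genes. Of the other activators, Psme4, which encodes PA200 and is needed in male germ cells, had 7.55 and 9.37, and Psme3, the nuclear PA28 gamma, had 1.71 and 2.00. Psme2b, a copy of Psme2, had no peak. Reads may be shared between the copies, so the values of both are uncertain.

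In the ordinary alpha ring 5 of 7 genes were called for Runx1, with mean folds of 3.38 to 28.1. This is 71.4%, against 45.3% of all genes and 71.5% of genes with a CpG-rich start. Psma2 had 29.7 and 26.5 (28.1 ± 2.26, SD, n = 2), in a peak shared with the mitochondrial ribosomal protein gene Mrpl32. Psma1 had 22.2 and 21.4, Psma4 had 10.7 and 11.6, Psma5 had 9.83 and 7.44, and Psma7 had 3.36 and 3.40. The remaining Psma3 and Psma6 had no peak at the ends of their annotated span, but both have a table start inside it. There Psma6 had Runx1 folds of 24.4 and 21.1 and Psma3 had 4.99 and 5.30, so that every gene of the ordinary alpha ring had Runx1 at a start. Counting inner starts in addition to gene ends was chosen after the end windows had been seen.

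In the ordinary beta ring 6 of 7 genes were called (85.7%, against 45.3% of all genes and 71.5% of those with a CpG-rich start). Their mean folds were 1.88 to 12.9. These folds were lower than in the alpha ring by their medians, 4.92 against 11.2 over the called genes, and the ranges overlapped. Psmb2 was highest with 13.5 and 12.2, Psmb3 had 7.14 and 6.61 and Psmb7 had 3.95 and 5.00. Psmb4 had 2.36 and 3.18. Psmb5, the chymotrypsin-like cutting subunit that Psmb8 replaces in the immunoproteasome, had no Runx1 peak in either replicate. The summits nearest to its ends lay 8111 and 8087 bp away. Of the cutting subunits that are replaced, Psmb6 and Psmb7 were called and Psmb5 was not, and of their replacements Psmb9 and Psmb10 were called and Psmb8 was not.

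The 19S base, whose ATPase ring unfolds the substrate, had Runx1 at 7 of 8 genes. This is 87.5%, against 45.3% of all genes and 71.5% of genes with a CpG-rich start. Psmc6 was highest with 24.1 and 21.8 (22.9 ± 1.63, SD, n = 2), and Psmc4 followed with 19.1 and 15.6 (17.3 ± 2.53). Psmd2, a scaffold of the base, had 6.47 and 7.44, and the ATPase genes Psmc3, Psmc5, Psmc2 and Psmc1 had mean folds of 4.42, 4.04, 2.99 and 2.52. Psmc2 has a further table start inside the gene, where its Runx1 folds were 7.52 and 9.28 (mean 8.40). Psmd1, the other large scaffold of the base, had none, and the nearest summits lay 7130 and 8483 bp from its ends. The ATPase genes of a single ring thus differed widely in their Runx1 fold.

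The 19S lid and receptors had Runx1 at 8 of 9 genes, with a median fold of 12.8 over those called. This is 88.9%, against 45.3% of all genes and 71.5% of genes with a CpG-rich start. Psmd8 had 25.9 and 26.1 (26.0 ± 0.128), and Psmd14, the deubiquitinase that strips ubiquitin from substrates, had 25.0 and 17.7 (21.3 ± 5.18). Psmd7, the partner of Psmd14 in the lid, had 16.4 and 14.9 (15.7 ± 1.02), Psmd3 had 12.9 and 13.7 (13.3 ± 0.520), and Psmd12 had 12.7 and 11.8. These lid genes lay in the upper part of the range. Psmd13 had a mean of 7.43, the ubiquitin receptor gene Psmd4 had 4.66 and Psmd11 had 4.26. Psmd6 was the exception, with the nearest summits 23793 and 23823 bp away.

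All 7 assembly chaperone genes were called for Runx1, against 45.3% of all genes and 71.5% of genes with a CpG-rich start. Psmg1, which with Psmg2 forms a chaperone of the alpha ring, had 32.2 and 27.3 (29.8 ± 3.47, SD, n = 2), in a peak shared with the chromatin reader gene Brwd1. Psmg2 itself had only 1.89 and 2.55. Between these, Psmd10 had 9.94 and 8.98, Psmg4 had 8.66 and 7.86, Psmd9 had 5.05 and 6.44, Psmd5 had 3.13 and 3.00 and Psmg3 had 2.42 and 2.53. Members of one chaperone pair thus stood at both ends of this group. Psmc3ip and Psme3ip1, which are no subunits, had mean folds of 5.80 and 8.93.

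**Figure D4:**
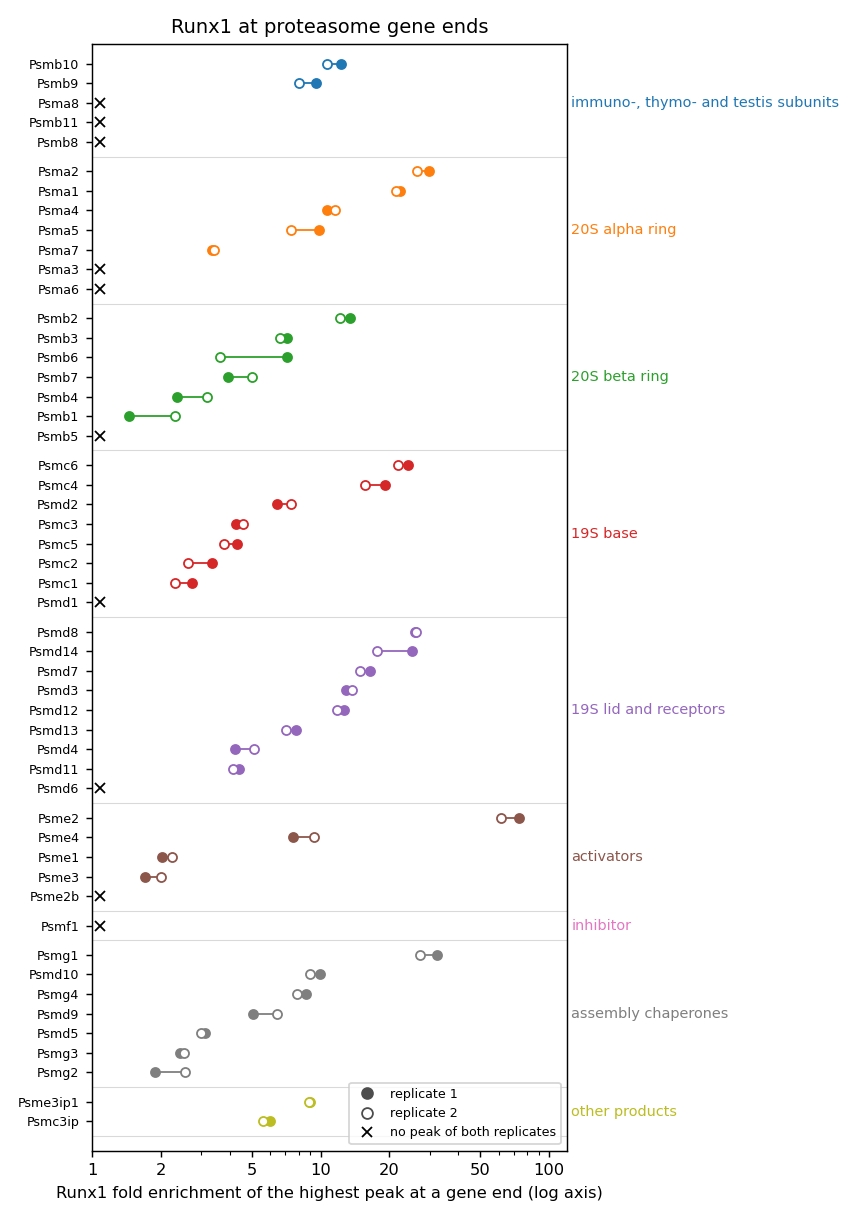
Runx1 fold enrichment (log axis) of the highest peak at an end of each of the 51 genes, in replicate 1 (filled) and replicate 2 (open), by role. Crosses mark the 10 genes with no peak of both replicates at an end (Psma3, Psma6 and Psmf1 have one at an inner start), and Psme2 stands highest with 74.1 and 61.3.

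Where the direction of the gene was known, the Runx1 call came from the window at its start. This held for all 34 called members with a known strand, among them Psmb10, whose peak only touched that window, and for 89.6% of the 8072 called genes of known strand in all, so the members stood near the share of other genes. Over table starts, which can be several per gene, 39 of 47 proteasome starts carried Runx1 in both replicates, or 83.0%, against 45.0% of all starts. At 36 of these 39, or 92.3%, the summits of both replicates lay within 200 bases of the start, against 64.9% of all starts with Runx1. The others were Psmb10, Psmd13, with summits 495 and 512 bases before the start, and Psmg4, with summits 254 and 253 bases beyond it. The 39 starts belong to 37 genes. Both table starts of Psme2 are among the 36 and carry the same peak, which thus counts more than once. The window of Psmd13 also holds the start of Sirt3, a mitochondrial deacetylase gene on the other strand.

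**Figure D5:**
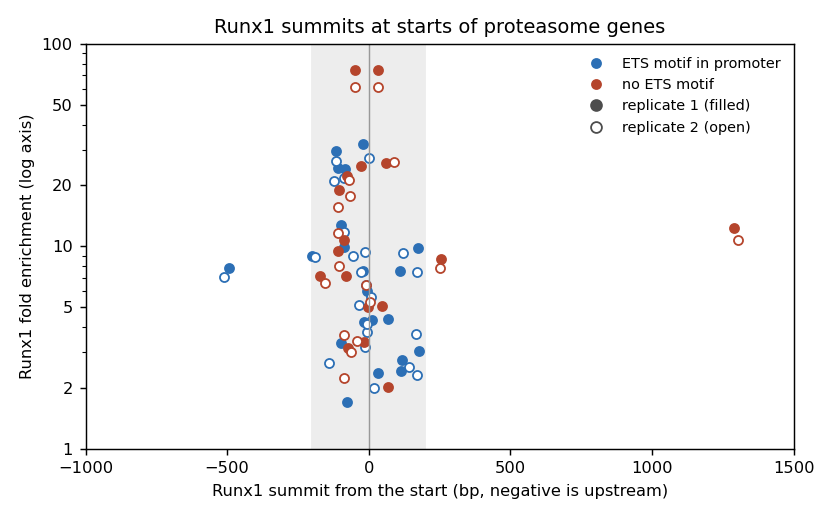
Position of the Runx1 summit relative to the start (horizontal axis, bp) and Runx1 fold enrichment (vertical log axis) at the 39 starts with Runx1 in both replicates, in replicate 1 (filled) and replicate 2 (open), by whether the promoter holds CCGGAA (blue) or not (red). The shaded band marks 200 bases either side of the start and holds 36 of the 39 starts, and high and low folds occur with and without the ETS letters.

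Counting table starts as well as gene ends, Runx1 was called at 44 of 51 genes, or 86.3%, against 47.9% of all genes. Of the 7 genes left, 3 were special core subunits (Psmb8, Psmb11 and Psma8) and 4 were others (Psmb5, Psmd1, Psmd6 and Psme2b). The Runx1 peak was shared with the end of another protein-coding gene at 14 of the 41 called members, or 34.1%, against 29.8% of all called genes. In such cases the peak cannot be given to one gene or the other. Besides those named above, these include Psmb3, whose peak lies also at Pcgf2, a gene of Polycomb repressive complex 1. Psmd8, whose peak lies also at Catsperg1, is another. The rest are Psma4, Psma7, Psmc2, Psmc5, Psmg2, Psmc3ip and Psme3ip1. Only the outermost ends of neighbours were compared, so sharing at their inner starts is not counted. Psmd10 is not in the list, although a table start of Atg4a on the other strand lies within 1000 bp of its start.

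The genes called for Ezh2 or H3K27me3 were Psmf1 and Psma8, with low folds, and neither was called for Runx1 at its ends. Psmf1, which encodes the inhibitor PI31, had Ezh2 folds of 1.92 and 2.58 and H3K27me3 folds of 2.54 and 2.42 near the outer end of its span on chromosome 2 (151716062 to 151744199). The Ezh2 peaks of the replicates did not overlap each other there. Runx1 stood elsewhere in Psmf1, at its inner table start, with folds of 3.03 and 3.67. Psma8 had H3K27me3 folds of 2.59 and 2.51 at one end. Its Ezh2 peaks, 2.61 in replicate 1 and 1.95 in replicate 2, lay at opposite ends of the gene, so Ezh2 was not called. Beyond these, a single replicate had an H3K27me3 peak at Psmb11 (1.68 in replicate 1) and at Psmg1 (2.43 in replicate 2). When a q no higher than 0.01 was asked of each peak, 0 members were called for Ezh2, against 8.08% of all genes, and 0 for H3K27me3, against 3.02% of all genes, which ends the calls at Psmf1 and Psma8.

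Other call rules moved the share over all genes as well. For Runx1, 39 members kept the call with a q of at most 0.01 (42.3% of all genes), 34 with 1e-05 (39.0%) and 14 with the 10000 strongest peaks of each list (16.7%). Windows of 500 bp gave 40 members (42.1%), windows of 2000 bp 41 (49.7%), the gene span 44 (59.9%), and the starts alone 37 of 43 (46.1%). An overlap of 100 bp gave 41 (44.8%), as did a summit in the window (43.8%) and replicate peaks that overlap each other (45.1%). Replicate 2 alone gave 42 (48.0%), and replicate 1 alone gave 42 (48.1%). Under each of these rules the share of proteasome genes with Runx1 was above that of all genes. For Ezh2, 0 members were called with a q of at most 1e-05 (4.58% of all genes), the 10000 strongest peaks (4.2%), windows of 500 bp (14.7%), starts alone (15.2%) or replicate peaks that overlap each other (16.3%). Windows of 2000 bp gave 2 members (23.6%), as did the gene span (31.5%), replicate 2 alone (22.6%) and replicate 1 alone (27.3%). For H3K27me3, 0 members were called with a q of at most 1e-05 (0.425%), the 10000 strongest peaks (2.92%) or starts alone (26.0%). Psma8 has no table start and could not be called at starts alone. Windows of 2000 bp gave 3 members (34.9%), as did replicate 2 alone (32.6%) and replicate 1 alone (38.6%). Gene ends or table starts gave 2 (31.5%). Where the share over all genes is itself low, as with the stricter q and the strongest peaks, a count of 0 among 51 genes is near that share and says nothing of the proteasome genes. Under the window, span and single-replicate rules the shares of proteasome genes with Ezh2 or H3K27me3 were below those of all genes.

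Genes that act with the proteasome also carried Runx1 and little Ezh2 or H3K27me3. Of 20 matched partner genes, 18 or 90.0% were called for Runx1, against 45.3% of all genes and 71.5% of genes with a CpG-rich start. For Ezh2 and H3K27me3 0 were called, against 18.4% and 30.6% of all genes. The genes named next were chosen after their values were seen. Nfe2l2, a transcription factor that raises proteasome genes under oxidative stress, had Runx1 folds of 72.3 and 61.1, the shuttle factor gene Rad23b had 42.3 and 35.3, and Zfand5, whose product activates the proteasome, had 36.5 and 30.1. Nfe2l1, the factor that raises proteasome genes when the proteasome is inhibited, had 6.88 and 6.84, and Ngly1, which processes it, had 30.7 and 30.8. Ecpas and Ddi2 had no call. Of 11 genes of MHC class I presentation, 9 or 81.8% were called for Runx1, against 45.3% of all genes. Among them were Irf1 with 10.4 and 10.6 and the light chain gene B2m with only 1.68 and 1.53. Tap1 is counted here through the peak it shares with Psmb9. Nlrc5, which drives MHC class I genes together with immunoproteasome genes, had no Runx1 call and Ezh2 folds of 1.83 and 2.21, and Tap2 was the other gene of this list with no Runx1 call.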

How the data were processed

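The authors deposited a separate peak list for each of the 6 antibody libraries, without pooling. MACS2 2.0.10, Bowtie2 2.2.1, SAMtools, Picard and the build mm10 appear in the submitters' processing notes, which state neither their use nor their parameters. Each deposited list gives per peak a fold enrichment (a linear ratio), -log10 p- and q-values, and a whole-number score, which was not used; the narrow lists of Ezh2 and Runx1 also give the summit. These are the authors' values.

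Genes (symbols, ends) and 300-base promoters (starts, strands) came from RefSeq tables on GRCm38.p6, which has the chromosome coordinates of mm10. Of the 51 members, 43 have a promoter entry; Psmb1, Psmb2, Psmb7, Psmc3, Psmd3, Psmd7, Psma8 and Psmg2 have none. Overlap was at least 1 bp, and an ± is the SD over 2 replicates. Paaf1 and older symbols in the partner list matched no gene. Values are given by replicate for the special and PA28 genes, the 10 members highest for Runx1 and all Ezh2 or H3K27me3 calls, with others added after their values were seen. The calling step was tested on simulated peaks. Python 3.11.15, numpy 2.4.6 and pandas 2.3.3 were used. Alternatives were peak thresholds, windows, overlap rules, single replicates and membership. The members and lists were chosen with earlier results of these data known.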

Additional observations from a re-analysis of the deposited data

How the results depend on the processing

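The count of 41 proteasome genes with Runx1 stayed between 34 and 44 under every alternative except 1: with the 10000 strongest peaks of each list it was 14, and 1 of the special core subunit genes was left. The share of all genes was 39.0% to 59.9% under the former and 16.7% with the strongest peaks. A q of at most 0.01 lost Psme3 and Psmb1. Leaving out either replicate gave 42, with Psmb11 or Psmb8 added, so that 3 special genes were counted. Windows of 500 bp lost Psmg2, and windows of 2000 bp lost none. The alternatives that count table starts in addition to gene ends, or that ask for the summit in the window, were chosen after seeing the data.

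The few Ezh2 and H3K27me3 calls depended on the settings. Ezh2 was called at 0 proteasome genes with a q of at most 0.01 or 1e-05, with the 10000 strongest peaks, with 500 bp windows, at starts alone, and where replicate peaks had to overlap each other. Over all genes these rules called 8.08%, 4.58%, 4.2%, 14.7%, 15.2% and 16.3%, in that order. Ezh2 was called at 2 members with 2000 bp windows (23.6% of all genes), over the whole gene span (31.5%), with replicate 2 alone (22.6%) and with replicate 1 alone (27.3%). There Psma8 joined Psmf1, so that the special genes counted 1. H3K27me3 was called at 0 proteasome and 0 special genes with either q, with the 10000 strongest peaks and at starts alone. Over all genes the share was 3.02% with a q of at most 0.01, 0.425% with 1e-05 and 2.92% with the strongest peaks. These counts of 0 are near those shares and say nothing of the members. At starts alone the share of all genes was 26.0%. With a single replicate H3K27me3 was called at 1 to 2 special genes and at 3 proteasome genes, against 32.6% and 38.6% of all genes (replicates 2 and 1). Psma8 has no table start, so the starts alone covered 43 members and 4 special genes and could not call it. The cause of the other changes was not tested. Single folds moved at few genes: Runx1 was 5.22 at Psmb10 with 500 bp windows, and with 2000 bp windows 48.0 at Psmc6, 9.58 at Psmb1 and 8.40 at Psmc2, while Ezh2 was 2.80 at Psmf1. No paired analysis was possible because the result comes from no test between antibodies. The inputs were not analysed here and the depth is unknown, so a weak peak missing from 1 replicate cannot be told apart from a lack of depth.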

Other observations

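Over all 21263 protein-coding promoters some of the letters searched stood in like shares of promoters with and without Runx1 and others did not. CCAAT stood in 38.2% of both, and either form of the RUNX letters in 22.3% of promoters with Runx1 and 20.9% of those without. TGTGGT stood in 12.7% of the 9578 promoters with Runx1 in both replicates and in 16.8% of the 11685 without, while its variant TGCGGT stood in 10.6% and 4.84%. The ETS letters CCGGAA stood in 31.8% of those with Runx1 and in 7.91% of those without. Of the 39 proteasome promoters with Runx1, 12.8% held TGTGGT, 7.69% TGCGGT and 56.4% CCGGAA. CpG-rich promoters hold the ETS letters (31.3%) and TGCGGT (11.4%) more often, and TGTGGT (9.21%) less often, than all promoters do, and their part in these shares was not tested. These shares were chosen for description after they were seen, and promoters are not replicates.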
